A study of Mus musculus with 4 samples.

Results

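The 10 genes described here encode the mouse DNA methylation machinery and a pair of genes known from germ cells and pluripotent cells. They were chosen by name, with this comparison already known: Dnmt3l, Dnmt3a, Dnmt3b, Dnmt1, Uhrf1, Tet1, Tet2, Tet3, Dppa5a and Tex19.2. They are 10 of the 49661 named genes and transcripts on the array, and 17 of its 61307 probes measure them. RNA came from C3H10T1/2, a mouse embryo fibroblast line, after chemical transformation in culture. Both groups carried that transformation: 3MC at 2.5 µg/ml for 2 days, then TPA, a phorbol ester, at 100 ng/ml for 2 weeks, then 4 weeks in normal medium. The treated group was then exposed to 0.25 mM DEM, diethyl maleate, a compound that depletes glutathione, and the other group was left untreated. Each group had 2 samples on 1-colour Agilent arrays. How long the cells were exposed is not stated in the labels used here, nor whether the samples were separate cultures. Every p-value therefore measures the spread among these samples alone, and that spread may be technical. The transformed cells were not described as a clone, and the measurements are averages over all cells of a sample.

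DNA methylation in mammals is placed on cytosines that precede guanines by the de novo enzymes DNMT3A and DNMT3B, and DNMT1 copies it to the new strand at each replication, guided by UHRF1. DNMT3L has no catalytic activity of its own. It binds the de novo enzymes and stimulates them, and it is known from germ cells and early embryos, where it is needed for methylation of imprinted regions and of transposons. The TET proteins oxidise methylated cytosine, the first step of its active removal. Dppa5a and the Tex19 genes are expressed in pluripotent cells and germ cells, and promoters of many germline genes are methylated in body cells.

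The sequences below identify the probes behind the largest differences, given as the first 30 of the 60 bases of each probe in the deposited files. Those of Dppa5a are shown because both of its probes were higher with DEM, and those of Tex19.2 and its neighbour Tex19.1 because the pair are related genes. The longest run of bases shared by probes of different genes among the members and Tex19.1 was 9, and the Tex19.2 and Tex19.1 probes shared at most 7. RefSeq also lists Dppa5b and Dppa5c as pseudogenes, and whether a Dppa5a probe takes signal from those copies was not tested.
Dnmt3l probe: atgaaagtctttcctagaaccagggcagat
Dppa5a probe, the brighter: tttgttacatcctagcaagatattcctgga
Dppa5a probe, listed as Dppa5 in the files: gaagaacttatcgaggtcttcctttacggc
Tex19.2 probe: ttggggcctcagggaagctgggttcatcgt
Tex19.1 probe: tgacctcactgtcataggggtcatatgctt

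Promoters are given because this set is about cytosine methylation, and the density of CG in them differs among the members. Each is the 250 bases before a RefSeq start site in GRCm38.p6, on the strand of the gene. CG is in capitals, and so is any match to TGACNNNGC, the core of the antioxidant response element, searched on both strands. Dnmt3l has 3 starts, and the most upstream lies at chr10:78042037-78042286 on the plus strand. Tex19.1 lies at chr11:121145893-121146142 on the plus strand and Tex19.2 at chr11:121118678-121118927 on the minus strand.
Dnmt3l: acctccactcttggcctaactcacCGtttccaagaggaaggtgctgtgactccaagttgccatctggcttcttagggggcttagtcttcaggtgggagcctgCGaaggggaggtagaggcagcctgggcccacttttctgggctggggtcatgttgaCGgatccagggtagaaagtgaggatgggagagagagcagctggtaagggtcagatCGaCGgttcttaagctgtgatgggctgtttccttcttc
Tex19.1: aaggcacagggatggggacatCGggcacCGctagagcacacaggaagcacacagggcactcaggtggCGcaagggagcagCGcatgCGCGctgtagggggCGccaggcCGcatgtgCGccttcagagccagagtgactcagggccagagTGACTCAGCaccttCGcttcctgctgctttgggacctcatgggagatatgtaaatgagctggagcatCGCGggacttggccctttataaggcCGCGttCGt
Tex19.2: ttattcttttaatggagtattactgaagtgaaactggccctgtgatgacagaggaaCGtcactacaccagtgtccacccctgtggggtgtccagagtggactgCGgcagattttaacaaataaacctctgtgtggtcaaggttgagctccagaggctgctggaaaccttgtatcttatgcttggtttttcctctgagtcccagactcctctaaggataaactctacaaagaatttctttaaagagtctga

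The 3 windows of Dnmt3l held 5, 4 and 3 CG, and that of Tex19.2 held 2, against a median of 6 over the 32851 promoter windows of the table. The other members with a promoter in the table ranged up to 51 CG, for Tet2. Dnmt3a held 38, 40 and 15 at its 3 starts, Dnmt3b 21, Tet1 15 and Tet3 17. Dnmt1 held 26, 7 and 2, and Uhrf1 held 10 and 30. The motif TGACNNNGC occurred in 10.2% of all windows. Among members it matched once, in Tet1, as TGACCTGGC with its first base 44 bases before the start, and outside the members once in Tex19.1, as TGACTCAGC, 101 bases before the start. No window of Dnmt3l or Tex19.2 held it. Dppa5a was not among the promoters searched.

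On the arrays, 47.8% to 52.7% of spots exceeded the background mark of the scanner software, and none was saturated. All 4 arrays lay on 1 slide, with the untreated arrays at positions whose first index was 1 and the DEM arrays at positions whose first index was 2, so slide position and group cannot be told apart. The untreated arrays had a 75th percentile of signal of 701 and 747, and those with DEM 449.9 and 412. Levels here are log2 signals minus that array's percentile, and differences are DEM minus untreated on that scale. Among 24555 genes tested, 27.3% passed, 15.5% as higher and 11.8% as lower, at an adjusted p of 0.05 in limma, and the median difference was 0.16. Of 14 fibroblast markers, all were measured. Of these, 7 were lower with DEM, among them Col3a1 (-2.76, adjusted p = 0.00109 in limma), and none was higher. The 7 include Lum, which was well above background on no DEM array and met the filter through the untreated arrays alone. Lum was at least 1.49-fold lower. Without untreated 1 or untreated 2, 3 or 4 of the 14 passed as lower. Of 8 epithelial markers, Krt8, Krt14 and Krt5 were measured and did not pass, Epcam and Cdh1 were not measured, and their list's summed level lay between -2.28 and -1.82 on the untreated arrays and between -2.29 and -1.72 on the DEM arrays. Of 8 macrophage markers, 4 were measured, without Ptprc and Csf1r, and Lyz2 was lower (-1.85, adjusted p = 0.0141 in limma) but did not pass with spike-in scaling or without either untreated array, with a summed level between 2.20 and 2.48 untreated and between 2.28 and 2.77 with DEM.

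Dnmt3l, Dppa5a and Tex19.2, 3 of the 10 members, passed the test as higher, none passed as lower and 7 did not pass, beside 15.5% of all genes higher, 11.8% lower and 27.3% in either direction. Since the members were chosen with these values in view, nothing is read from that count, and their differences are given without p-values. In 6 members both DEM arrays lay above both untreated arrays, in 2 both lay below, and in 2 the groups overlapped. Over all genes tested, both DEM arrays lay above in 42.4% and below in 26.0%, so that the groups did not overlap in 68.4%. The median difference of the members was 0.49. All 10 members had a probe that passed the filter, as did 16 of the 17 probes. Precision is limited by the 2 arrays per group, and each difference carries the standard error (SE) of the limma fit and its 95% interval.

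**Figure D1:**
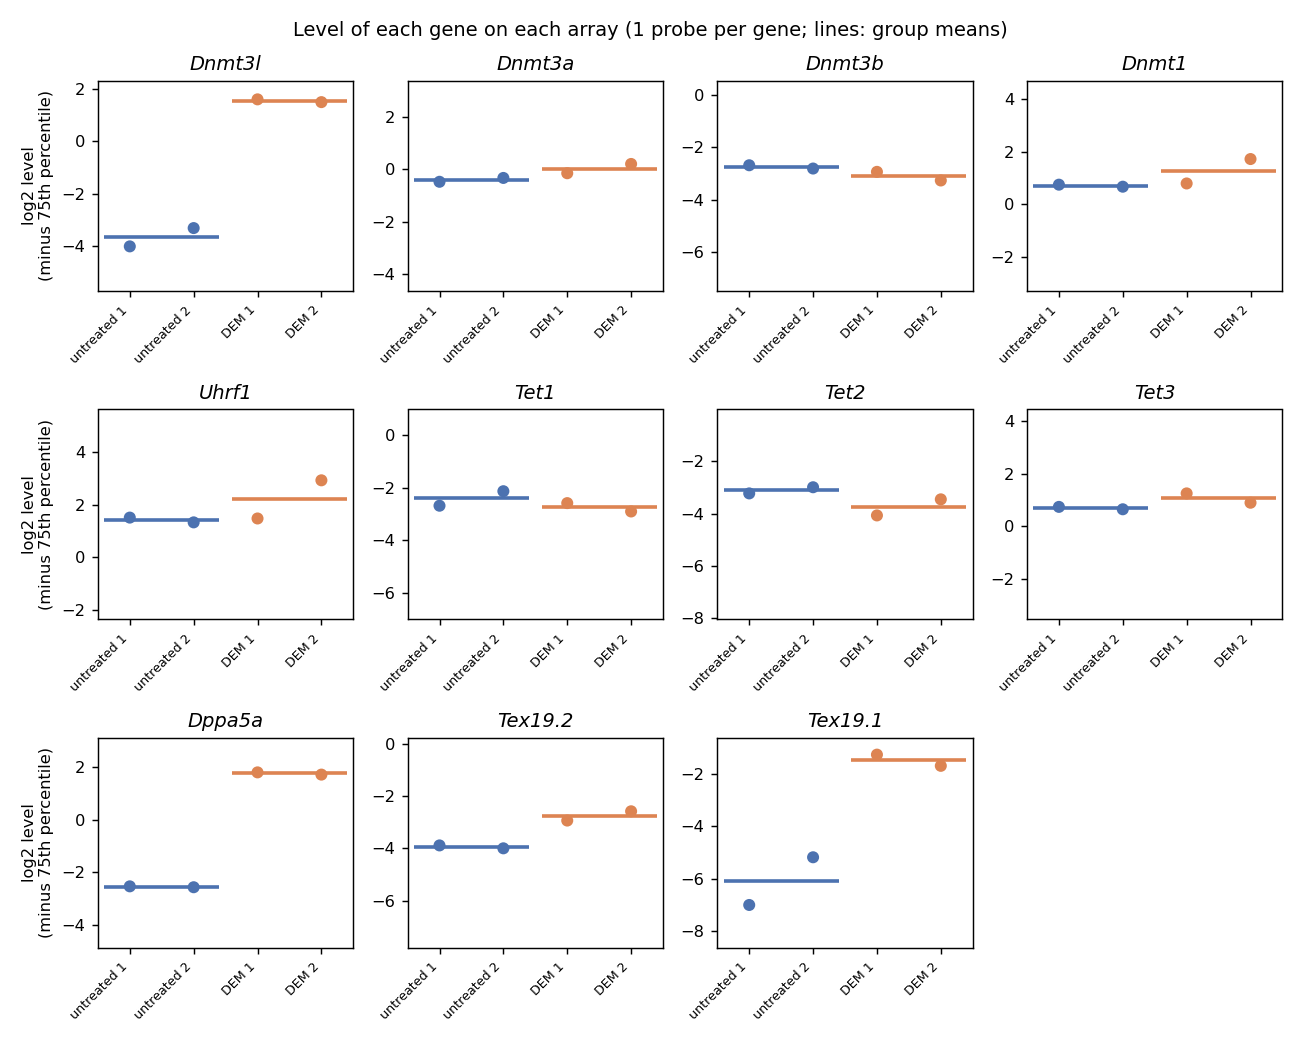
Level of each of the 10 genes, and of Tex19.1, on the 4 arrays, in log2 units relative to the array's 75th percentile. Points are arrays, lines are group means, and each panel spans the same number of log2 units. Dnmt3l, Dppa5a and Tex19.1 stand apart between the groups by more than 3 log2 units, while Dnmt1 and Uhrf1 are high on DEM 2 alone.

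Dnmt3l, the cofactor of the de novo enzymes, had the largest difference of the set. Its level was -4.01 and -3.32 on untreated arrays 1 and 2 and 1.59 and 1.48 on DEM arrays 1 and 2. Both DEM arrays lay 4.80 log2 units or more above both untreated arrays, and the probe was well above background on all 4. The untreated mean was -3.66 ± 0.49 (SD, n = 2) and the DEM mean 1.54 ± 0.07 (SD, n = 2). The difference was 5.20 ± 0.29 (SE; 95% interval 4.50 to 5.90), which is 36.8-fold. In bulk RNA a few cells with much Dnmt3l and many cells with a little cannot be told apart.

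The de novo enzymes that Dnmt3l assists had small differences on the probes standing for the genes, and the Dnmt3a probes did not move together. Dnmt3a was -0.47 and -0.32 untreated and -0.14 and 0.21 with DEM on its brightest probe. The groups did not overlap there but lay 0.18 apart, and the difference was 0.43 ± 0.22 (SE; 95% interval -0.10 to 0.96). A dimmer Dnmt3a probe was -2.67 and -3.06 untreated and -1.76 and -1.71 with DEM. Its difference was larger, 1.13 ± 0.26 (SE; 95% interval 0.49 to 1.77), with no overlap. The remaining Dnmt3a probe was -1.15 and -1.31 untreated and -1.06 and -1.92 with DEM, a difference of -0.26 ± 0.33 with overlapping groups. Dnmt3a thus gave 2 probes above and 1 below, and whether they read different transcripts was not tested. Dnmt3b was -2.68 and -2.80 untreated and -2.93 and -3.26 with DEM. Both DEM arrays were below both untreated arrays by 0.13, and the difference was -0.35 ± 0.27 (SE; 95% interval -1.01 to 0.31), which became 0.08 with normexp background correction.

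The maintenance pair showed values on DEM array 2 that DEM array 1 did not have. Dnmt1, the maintenance methyltransferase, was 0.75 and 0.67 untreated, 0.79 on DEM 1 and 1.73 on DEM 2. Its DEM 1 value lay 0.05 above the untreated values, and the difference of 0.55 ± 0.32 (SE; 95% interval -0.24 to 1.34) fell to 0.08 without DEM 2. Uhrf1, which brings DNMT1 to newly copied DNA, was 1.51 and 1.33 untreated, 1.48 on DEM 1 and 2.93 on DEM 2 on its brighter probe. The groups overlapped, and the difference was 0.78 ± 0.45 (SE; 95% interval -0.33 to 1.90), or 0.06 without DEM 2. The other Uhrf1 probe gave the same picture at 0.44 and 0.02 untreated, 0.35 on DEM 1 and 1.48 on DEM 2, a difference of 0.68 ± 0.39.

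Levels of DNA replication genes also differed between the DEM arrays. DEM 2 was above DEM 1 in 29 of 29 measured replication genes, with a median DEM 2 minus DEM 1 of 1.16, against 0.93 for Dnmt1 and 1.45 and 1.13 for the probes of Uhrf1. Over all genes tested, DEM 2 was above DEM 1 in 13091 of 24555 and the median was 0.03. The median level of the replication genes was 1.57 and 1.68 untreated, 1.38 on DEM 1 and 2.72 on DEM 2. Between groups, 5 of the 29 passed as higher and none as lower, beside 15.5% and 11.8% of all genes. Without DEM 1, 21 passed as higher and none as lower, and without DEM 2, 5 passed as higher and 8 as lower. Without untreated 1 or untreated 2, 1 and 0 passed as higher. The 5 were Pcna, the sliding clamp of the polymerases (1.14, adjusted p = 0.00572 in limma), the helicase subunits Mcm7 (1.18) and Mcm3 (1.17), the licensing factor Cdt1 (1.75) and Mcm10 (1.49), the last named after its value was seen. Top2a (0.02) and Mki67 (0.01), a topoisomerase and a marker of dividing cells, did not pass. Without DEM 2 they passed as lower, at -0.89 and -1.03 with adjusted p = 0.0169 and 0.00764 in limma, and without DEM 1 as higher, at 0.92 and 1.05 with adjusted p = 0.0147 and 0.00678. The part of dividing cells in the values of Dnmt1 and Uhrf1 was not tested.

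**Figure D2:**
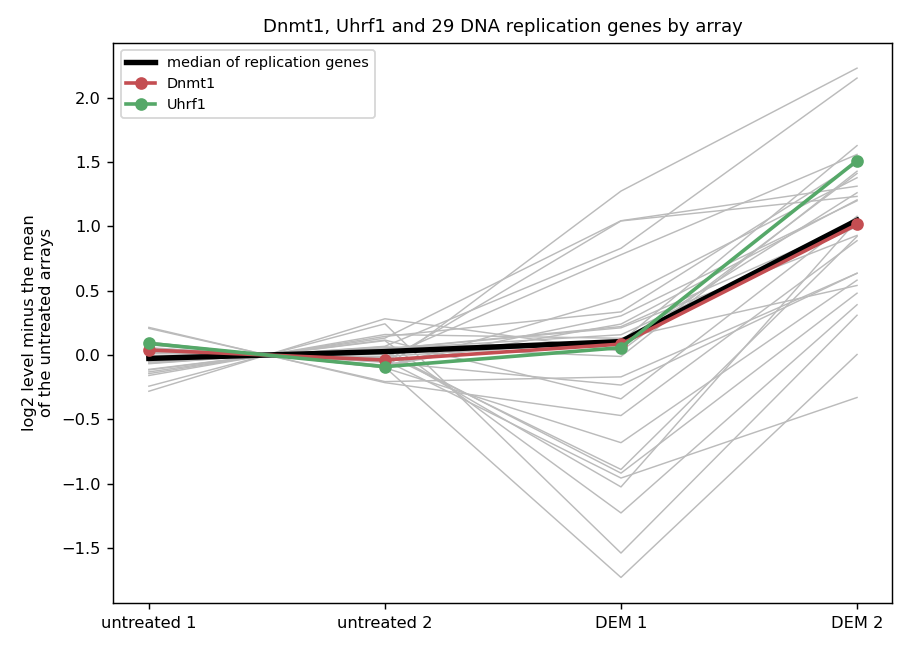
Log2 level of Dnmt1, Uhrf1 and 29 DNA replication genes (grey; median in black) on each array, minus the gene's mean over the untreated arrays. On DEM 1 Dnmt1, Uhrf1 and the median of the replication genes stay near 0, and on DEM 2 all 3 lie at or above 1.

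On the probes standing for the genes, the TET dioxygenases gave small differences with no common direction. Tet1 was -2.69 and -2.14 untreated and -2.59 and -2.91 with DEM. The groups overlapped, and the difference was -0.34 ± 0.30 (SE; 95% interval -1.07 to 0.40). Tet2 was -3.23 and -3.00 untreated and -4.07 and -3.46 with DEM on its brighter probe. Both DEM arrays were lower, by 0.23 or more, and the difference of -0.65 ± 0.33 (SE; 95% interval -1.46 to 0.16) became 0.11 with normexp background correction. The other Tet2 probe was -3.35 and -4.12 untreated and -3.74 and -6.08 with DEM, where DEM 2 was not well above background. Its difference was -1.17 ± 0.77 (SE) with overlapping groups, and the mean of the kept Tet2 probes gave -0.91. Tet3 was 0.74 and 0.65 untreated and 1.26 and 0.90 with DEM on its brightest probe, a difference of 0.38 ± 0.21 (SE; 95% interval -0.12 to 0.89) with no overlap. A second Tet3 probe was -4.17 and -3.74 untreated and -4.68 and -3.88 with DEM, with overlapping groups, and the third was well above background on no array. Averaged over the kept probes, the Tet3 difference was 0.03.

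Dppa5a, an RNA-binding protein gene of pluripotent cells, had the second largest difference among the members. Its brighter probe was -2.54 and -2.57 untreated and 1.80 and 1.72 with DEM. The arrays of each group were close to each other and the groups lay 4.26 apart. The untreated mean was -2.56 ± 0.02 and the DEM mean 1.76 ± 0.06 (SD, n = 2 each), a difference of 4.32 ± 0.19 (SE; 95% interval 3.85 to 4.79) or 19.9-fold. The other probe was -6.08 and -5.84 untreated, not well above background on either array, and -2.04 and -2.38 with DEM. Its means were -5.96 ± 0.17 and -2.21 ± 0.24, and it was at least 6.07-fold higher with DEM. Such a bound divides the bright group's mean by that of a floor for the dim arrays, either the weakest signal counted as well above background there or the probe's own signal if that was stronger.

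Tex19.2, one of the paralogous Tex19 genes of the mouse, was -3.88 and -3.99 untreated and -2.93 and -2.58 with DEM. Both DEM arrays were above both untreated arrays by 0.95. The difference was 1.18 ± 0.29 (SE; 95% interval 0.47 to 1.89), or 2.26-fold. The Tex19.2 signals not scaled to the percentile were closer, at 47.5 and 46.9 untreated and 58.8 and 68.9 with DEM. Its neighbour Tex19.1, not a member, was -7.00 and -5.18 untreated, below the background mark on both arrays, and -1.27 and -1.70 with DEM. The means were -6.09 and -1.48, and Tex19.1 was at least 10.02-fold higher. It met the filter through the DEM arrays alone, so its call rests on untreated signals below the background mark. With the filter on 4 arrays it was left out.

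**Figure D3:**
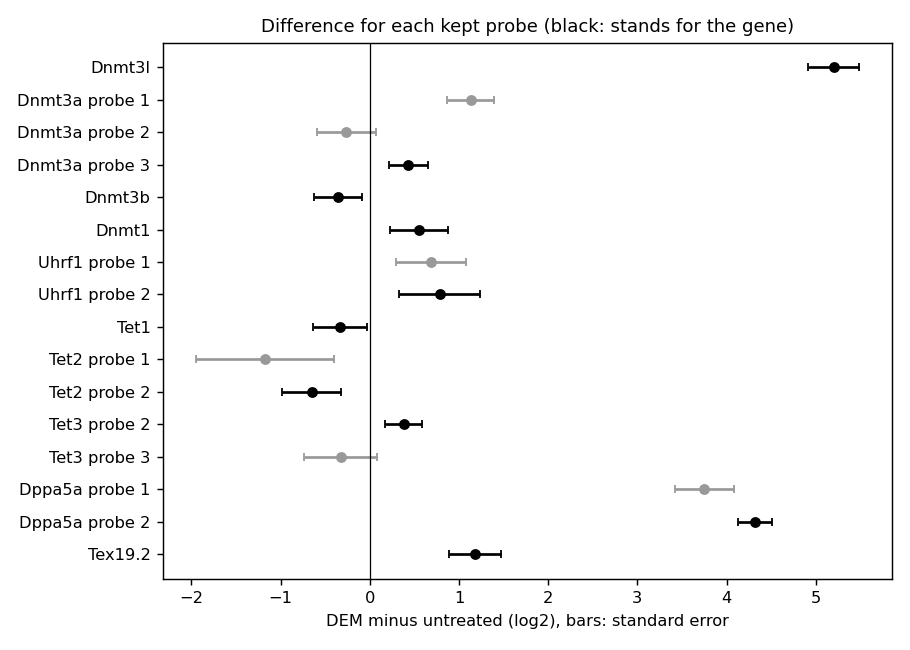
DEM minus untreated on the log2 scale for the 16 probes of the members that passed the filter, with the standard error. Black points are the probe standing for the gene, grey points its other probes. Dnmt3l lies at 5.20, the brighter Dppa5a probe at 4.32 and Tex19.2 at 1.18. The other Dppa5a probe is drawn at its fitted value, which is no bound, and the probes of the enzymes lie between -1.17 and 1.13.

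Genes beside the members on the chromosome, in RefSeq order, were looked at after the values of the members were seen. Beside Dppa5a, the glutathione transferase gene Gsta2 was -6.99 and -5.47 untreated and 3.84 and 3.76 with DEM. Its means were -6.23 and 3.80, and it was at least 389.8-fold higher with DEM. Gsta2 was well above background on no untreated array and met the filter through the DEM arrays alone. The Dppa5a and Gsta2 probes shared at most 5 bases in a row. On its other side, Ooep was well above background on no array, and Cgas, the third gene on that side, was higher (1.69, adjusted p = 0.00401 in limma). Beside Dnmt3l, Aire was at least 1.10-fold lower (means -4.09 and -5.67) and met the filter through the untreated arrays alone. Icosl was not measured, Pfkl was -0.03 and Gatd3a -0.50. Pwp2, the third gene beyond Dnmt3l, was higher (1.69, adjusted p = 0.00318 in limma). Beyond Tex19.1, Uts2r was -0.33 and Ogfod3 was lower (-0.68, adjusted p = 0.0451 in limma). A shared domain or shared control was not tested.

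The genes whose 4 levels, centred on their own mean, lay closest to those of Dnmt3l were sought among 12701 genes of plain symbol by root mean square difference over the 4 arrays. They were Htatip2 (0.16), Rnf183 (0.26), Cyp1a1 (0.31), Pou3f3 (0.32) and Srxn1 (0.37). Srxn1, sulfiredoxin, was 3.34 and 3.42 untreated and 8.47 and 7.80 with DEM, and the others were not well above background on either untreated array. For Dppa5a they were Txk (0.05), Clec4d (0.15), Nrcam (0.16), Scgb2b15 (0.20) and Slc16a6 (0.20), of which Nrcam and Slc16a6 were well above background on all 4 arrays. Nrcam was -2.13 and -2.43 untreated and 2.40 and 2.19 with DEM. Over 4 arrays in 2 groups, this measure weighs the difference between the groups most.

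The lists below were read in the same fit. Scaled to spike-in RNA in place of the 75th percentile, Tex19.1, Klf5, Plagl1, Dcn, Idh2 and Nnmt still passed, while Pcna, Mcm7, Cdt1, Mcm3, Tbx3, Airn, Impact, Mbd1, Uhrf2, Usp7, Zfp57, Gadd45a, Gadd45g, Tdg, Mthfd1l, Shmt1 and Cth did not. Mbd1, Uhrf2, Usp7, Zfp57, Tdg, Cth, Tbx3, Dcn, Mcm7, Cdt1 and Mcm3 also did not pass when either untreated array was left out, nor did Airn without untreated 1 or Impact and Pcna without untreated 2.

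Most genes known as targets of promoter methylation in body cells were not detected in either group. Of 37 germline genes, 28 were well above background on no array, 9 were measured, 1 passed as higher and none as lower, with a median difference of 0.34. The gene that passed was Tex19.1, which met the filter through the DEM arrays alone. Tex101 (0.92), Brdt (0.51) and Tdrkh (-1.02) did not pass, and other Brdt probes gave -1.34 and -0.02. Hormad2 (-0.15) and Hormad1 (0.40) were furthest from the threshold. The summed level of the list, 5.24 and 5.30 untreated and 4.92 and 5.32 with DEM, was carried by Tuba3a, a tubulin gene at 5.21, 5.27, 4.85 and 5.28, and so says little of the other members. With 1 gene called of 9, the list lay below the 27.3% of all genes.

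Of 28 pluripotency genes, 18 were well above background on no array, among them Pou5f1, Nanog, Sox2 and Zfp42. Of the 10 measured, 1 passed as higher and 1 as lower, near the 27.3% of all genes called, with a median difference of 0.18. Klf5, a Krüppel-like factor also used by epithelia, was higher (2.70, adjusted p = 0.00149 in limma), from -1.30 and -1.16 to 1.27 and 1.67. Tbx3, a T-box factor, was lower (-1.08, adjusted p = 0.00925 in limma). Klf4 (0.59), L1td1 (0.69), Sall4 (0.11) and Klf2 (-0.27) did not pass, although another Klf2 probe gave -2.49. The summed level was 6.51 and 7.24 untreated and 6.86 and 6.98 with DEM and was carried by Klf2 and Klf4, which other cell types also express.

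Of 34 imprinted genes, 19 were measured, 2 were higher and 3 lower, near the 27.3% of all genes called. The median difference of the list was -0.28. Parental expression of many imprinted genes, though not of all, depends on methylation set in germ cells. Plagl1, a zinc finger growth regulator, fell by 2.62 (adjusted p = 0.00379 in limma), from 1.52 and 2.30 to -0.90 and -0.51, with its other probe at -2.13. Airn, the noncoding RNA of the Igf2r cluster, was lower (-1.85), with 3 further probes between -1.76 and -1.54 and one at 0.34. Dcn, decorin, was also lower (-3.11), and the same Dcn probe is counted among the lower fibroblast markers. Impact (1.36) and Zrsr1 (1.02) were higher, Zrsr1 named after its value was seen. Ascl2 (-0.09) and Sgce (0.02) did not pass.

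Of 9 readers of methylated CpG, 2 were higher and none lower, near the 15.5% and 11.8% of all genes, with a median difference of -0.03. They were Mbd1 (0.89, adjusted p = 0.0155 in limma), whose other probe gave 0.55, and Uhrf2, a relative of Uhrf1 (0.80, adjusted p = 0.022 in limma), whose other probe gave -0.47. Mbd3 (-0.65), Mbd4 (1.16) and Zbtb4 (-0.01) did not pass. Of 21 measured silencing partners, 1 was higher, Usp7 (0.79, adjusted p = 0.0138 in limma), a deubiquitinase that binds DNMT1 and UHRF1. The 1 lower gene was Zfp57 (-1.38, adjusted p = 0.0209 in limma), which protects imprinted methylation. Zfp57 did not pass with normexp background correction. The calls of this list lay below the 27.3% of all genes, and its median was 0.03. Ehmt2 (0.03), Cbx1 (-0.07), Kdm1a (0.51) and Cbx5 (-0.52) did not pass, although another Cbx5 probe gave -1.08 (adjusted p = 0.0182 over probes in limma).

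Of 16 measured genes of demethylation and repair, 3 were higher and 1 lower, near the 15.5% and 11.8% of all genes, with a median difference of 0.22. Idh2, a mitochondrial isocitrate dehydrogenase that makes 2-oxoglutarate, which TET enzymes use, was 2.82 and 2.91 untreated and -0.34 and -0.20 with DEM. It fell by 3.13 (adjusted p = 0.000702 in limma), with no overlap. Gadd45a (2.51) and Gadd45g (1.30), stress-induced proteins linked to repair, and Tdg (0.79), which excises oxidised methylcytosine, were higher, with adjusted p = 0.00451, 0.00352 and 0.023 in limma. Gadd45b (-0.08) and Ung (0.07) did not pass.

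Of 18 measured genes of the methyl donor cycle, 6 were higher and 3 lower, beside 15.5% and 11.8% of all genes. The median difference of the list was 0.40. Like the others, the list was chosen with earlier results of these data known, so nothing is read from these counts. The folate enzymes Shmt1 (2.15, with its other probe at 0.97), Mthfd1l (1.53), Mthfd2 (1.53) and Shmt2 (0.97) were higher. So were Cth, cystathionine gamma-lyase (1.34), and Mtrr, methionine synthase reductase (1.21). Nnmt, which uses S-adenosylmethionine to methylate nicotinamide, fell by 2.22 (adjusted p = 0.00215 in limma), with its other probe at -2.24. Cbs, which starts the conversion of homocysteine to cysteine, was -2.50 and -1.90 untreated and not well above background with DEM. It was at least 4.04-fold lower, with means of -2.20 and -5.79. Cbs met the filter through the untreated arrays alone, and with the filter on 4 arrays 2 genes of the list passed as lower. Mat2b, a regulator of S-adenosylmethionine synthesis, was lower (-0.60), and Ahcy (-0.10) and Gnmt (0.13) did not pass. None of the 6 passed as higher with spike-in scaling, and 2 or 3 genes of the list did without untreated 1 or untreated 2. Mthfd2, Shmt2, Mtrr, Cbs and Mat2b were named after their values were seen.

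**Figure D4:**
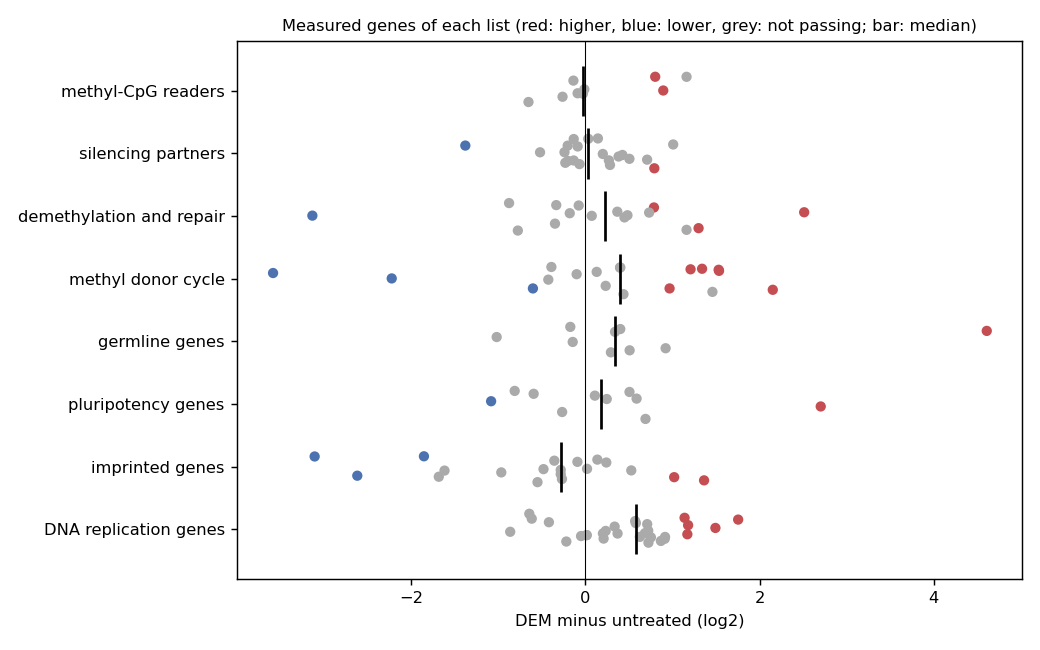
DEM minus untreated on the log2 scale for each measured gene of 8 lists around DNA methylation. Red points passed as higher, blue points as lower, grey points did not pass, and the bar is the list's median. The medians lie between -0.28 and 0.58, and Klf5 lies at 2.70 and Idh2 at -3.13. Tex19.1, Cbs and Phlda2 are drawn at fitted values, although each was well above background on no array of 1 of the groups.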

How the data were processed

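Total RNA (500 ng per sample, per the labels) was labelled with Cy3 for a custom Agilent array of mouse transcripts, 1 sample on each. Per the file headers, Agilent Feature Extraction 10.7.3.1 made the deposited intensity values, and its mark for a spot well above background used a multiplier of 13. The authors also deposited a log2 table, with column medians from -4.39 to -4.30, that lay within 0.01 of log2 intensity minus a constant near the array's 75th percentile for 99.94% of probes. It served as an alternative. Members and lists were chosen with earlier results of these data known.

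Of 62976 spots per array, 1319 controls were left out, as were outlier spots (13 to 68 per array). Log2 signal minus the 75th percentile was averaged per probe. A filter required the well above background mark on 2 arrays or more and left 31771 probes. The brightest of them represented each of 24555 genes. Names were updated through RefSeq GRCm38.p6 (28897 probes by accession, 4575 by symbol, 1233 by synonym). DEM was compared with untreated by lmFit and eBayes with trend (limma 3.58.1, R 4.3.3; 2 residual degrees of freedom). Two-sided p-values were adjusted by Benjamini-Hochberg across the genes tested, with a threshold of 0.05. Named were all members, in each list up to 4 genes with the smallest and up to 2 with the largest p, and 5 genes nearest each of Dnmt3l and Dppa5a in level pattern. A single gene under this rule is not reported here. Alternatives were normexp (offset 50), quantile and spike-in normalization, the deposited table, 2 other filters, the mean of probes, a replicate block and leaving out each array. Protein sequences were not analysed here. Figures were drawn with matplotlib 3.10.9.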

Additional observations from a re-analysis of the deposited data

How the results depend on the processing

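Dnmt3l stayed higher in each of the 12 alternatives, with 3.99 under normexp and 4.85 to 5.55 when an array was left out. Dppa5a gave 3.70 under normexp, 4.02 with spike-in scaling, 4.03 as the mean of its probes and 4.28 to 4.36 with an array left out. Under normexp, Dnmt3b became 0.08, Tet2 0.11 and Ascl2 0.40. With an array left out, Top2a ranged from -0.89 to 0.92 and Mki67 from -1.03 to 1.05, passing as lower without DEM replicate 2 and as higher without DEM replicate 1. Other list genes near 0 that did not pass also changed sign under some settings. The cause was not tested. Higher genes numbered 6443 under normexp, 246 with spike-in scaling and 17241 with no filter, against 3800, and lower genes 877 with spike-in scaling, against 2892. Spike-in scaling moved the median of all genes from 0.16 to -0.14. Without 1 array there were 637 to 4464 higher and 794 to 3792 lower genes. Calls in either direction with spike-in scaling were 0 for the methyl-CpG readers, silencing partners and replication genes, 1 for demethylation and repair and for pluripotency genes, and 2 for the methyl donor cycle and imprinted genes. The readers had 1 with the mean of probes. Germline genes had 4 under normexp, 21 with no filter and 0 with the filter on 4 arrays, pluripotency genes 4 and 14 under the first 2 of these, and imprinted genes 12 with no filter. With 1 array left out, calls ranged from 0 to 3 (readers), 0 to 5 (silencing partners), 3 to 7 (demethylation and repair), 4 to 11 (methyl donor cycle), 1 to 3 (germline), 1 to 4 (pluripotency), 2 to 8 (imprinted), 3 to 10 (fibroblast markers) and 0 to 21 (replication, with 8 lower without DEM replicate 2). Idh2, Nnmt, Klf5 and Plagl1 passed in all settings. Over the genes tested, deviations of untreated 1 and DEM 1 from their group means correlated at r = 0.085. With 2 arrays per group the other same-numbered pair gives the same value by construction. Whether same-numbered samples were paired cannot be told from it. The replicate block gave 4438 higher and 3349 lower genes. Weak signals near background limit the low probes of Dnmt3b, Tet2, Tet3, Tex19.2 and the germline genes. They also limit the untreated values of Dnmt3l and of the dimmer Dppa5a probe.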
